A study of Gallus gallus with 7 samples.

Results

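In the ovaries of 7 laying hens, 26 genes had fewer reads, for the size of the library, in every persistent hen than in any non-persistent hen. They were selected by the group difference itself: the reads of a gene were scaled to a library total of 1000000 (CPM), the mean over the 7 hens had to reach 1 CPM, and the lowest non-persistent hen had to lie at least 25% above the highest persistent hen. Of 15481 genes with that mean, 26 met the rule (0.168%), out of 24356 genes in the table. Without the margin of 25%, 397 genes had groups that did not overlap and lower values in the persistent hens (2.56%). Because the values of the 2 groups chose the genes, the difference between the groups is described here and not tested. The mirror rule, for genes higher in every persistent hen, found 17.

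The birds were Single-comb White Leghorns of a Shaver line, caged one by one under 16 hours of light and 8 hours of darkness, with feed and water always at hand. Laying was followed day by day in a flock of 40, between 16 and 76 weeks of age. Persistent hens (PL, n = 3) came from the upper quartile and laid at a rate of 100%. Non-persistent hens (NPL, n = 4) came from the lower quartile, with a rate of at most 82%. All 7 hens received the same care, and the labels name no treatment or allele that differs between them, so the groups were sorted by outcome and not assigned. Follicles larger than 1 mm were taken off and roughly 10 mg of the remaining ovarian body was used. Each hen gave 1 library and is called by its sample number: 8, 9 and 20 were PL, and 10, 12, 13 and 42 were NPL.

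The hen's ovary carries a hierarchy of large yolk-filled follicles, which ripen and ovulate in turn, above a reserve of small follicles in the ovarian body. The small follicles hold an oocyte, the granulosa cells around it and the theca cells outside, and the stroma between them carries vessels, nerves, smooth muscle and immune cells. A hen goes on laying only while small follicles are recruited into the hierarchy. In this mixture a lower read count can come from fewer cells of a type or from less RNA per cell, and these cannot be told apart in bulk tissue.

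The genes are known here only by Ensembl ID. None of the 25635 genes in the reference table carries such an ID, so none of the 26 could be given a symbol, a function or a position, and the ovary's marker genes could not be looked up. Levels are therefore compared between hens for 1 gene at a time and not between genes, since gene lengths are not known. Without a stated strand setting, reads of a gene and of an overlapping or antisense neighbour cannot be told apart.

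Library totals ran from 21535850 (hen 42) to 27803563 (hen 10), so that 1 read was worth 0.0464 to 0.0360 CPM. All 26 genes were read in all hens, with at least 8 reads in each. The mean over the 7 hens lay between 1.03 and 16.95 CPM, with 16 genes under 5 CPM. Together they held between 0.00736% and 0.00866% of the reads in the PL hens and between 0.0153% and 0.0176% in the NPL hens.

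Hens 8 and 13 each resembled the other group. On the leading principal component of expression, given in full further on, PL hen 8 lay with NPL hens 10, 12 and 42, and NPL hen 13 lay with PL hens 9 and 20. Whether the labels of these 2 hens are exchanged or the birds differ cannot be told apart from these data, and an exchange would change the members and every group value. The rule found 26 genes with both hens, 411 without hen 8, 83 without hen 13 and 1191 without either, and the 26 were among those each time. The CPM of each member is given by hen below or can be read by hen in the plot of CPM. Fold changes, group means and calls rest on the labels as given.

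The gap was at least 2-fold in 3 genes, between 1.5- and 2-fold in 3 others and under 1.5-fold in the other 20, with a median of 1.33-fold. The group means differed by 1.37- to 5.27-fold, with a median of 1.99-fold, and 13 of the 26 reached 2-fold. On the log2 scale of the edgeR fit, PL relative to NPL, the fold changes of the members ran from -2.38 to -0.47 with a median of -0.996, beside a median of -0.0013 over all 17051 genes tested. The rule itself sets this shift.

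**Figure D1:**
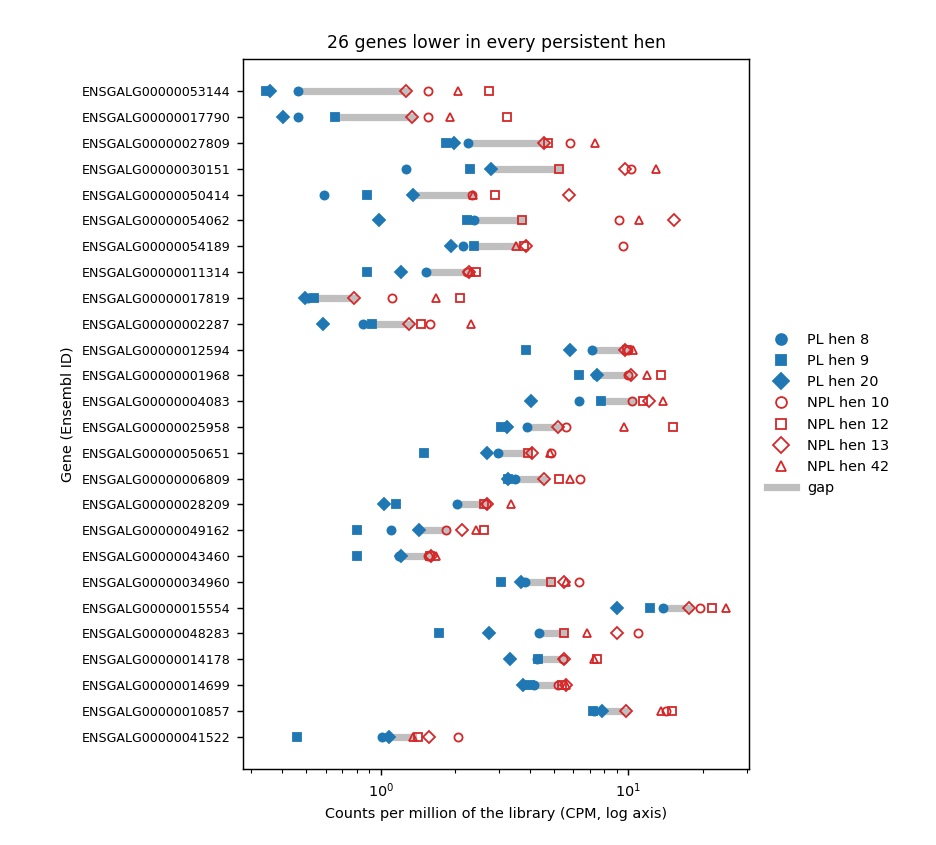
CPM of the 26 genes in each hen on a log axis, with filled blue marks for the 3 PL hens, open red marks for the 4 NPL hens and a grey bar for the gap between the highest PL and the lowest NPL hen. Genes are ordered by the size of the gap, from 2.72-fold at the top to 1.252-fold at the bottom.

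ENSGALG00000053144 had the widest gap, 2.72-fold. It lay at 0.465, 0.345 and 0.359 CPM in PL hens 8, 9 and 20, and at 1.55, 2.73, 1.27 and 2.04 CPM in NPL hens 10, 12, 13 and 42. The PL hens were alike and the NPL hens spread from hen 13, the lowest, to hen 12, the highest. The means were 0.390 ± 0.0659 CPM (SD, n = 3) and 1.90 ± 0.643 CPM (SD, n = 4), a log2 fold change of -2.28 (SE 0.42). These values rest on 8 to 11 reads per PL library and 34 to 64 per NPL library.

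ENSGALG00000017790 followed with a gap of 2.06-fold. Its values were 0.465, 0.652 and 0.403 CPM in hens 8, 9 and 20, against 1.55, 3.24, 1.34 and 1.90 CPM in hens 10, 12, 13 and 42. Among the NPL hens the order was the same as for the first gene in that hen 13 was lowest and hen 12 highest. The log2 fold change was -1.99 (SE 0.44), on 9 to 17 reads in PL and 36 to 76 in NPL.

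ENSGALG00000027809 had a gap of 2.04-fold. The PL hens lay at 2.24, 1.84 and 1.97 CPM and the NPL hens at 5.79, 4.74, 4.58 and 7.34 CPM, in the same order of hens. Hen 42 was the highest here, while hens 12 and 13 lay close together. The means of 2.02 ± 0.205 CPM (SD, n = 3) and 5.61 ± 1.27 CPM (SD, n = 4) gave a log2 fold change of -1.48 (SE 0.27).

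The NPL hens spread widely in the next 3 genes. ENSGALG00000030151 lay at 1.27, 2.30 and 2.78 CPM in hens 8, 9 and 20, and at 10.3, 5.25, 9.72 and 13.0 CPM in hens 10, 12, 13 and 42. Hen 8 was the lowest PL hen for this gene, and hen 12 alone brought the NPL group nearer to the PL hens. Its log2 fold change was -2.19 (SE 0.37). ENSGALG00000054062 had the largest fold change of all, -2.38 (SE 0.50), from 2.37, 2.23 and 0.986 CPM in PL to 9.21, 3.71, 15.3 and 11.1 CPM in NPL. Hen 12 was the lowest NPL hen and set the gap of 1.57-fold, and hen 13 was the highest. ENSGALG00000050414 lay at 0.592, 0.882 and 1.34 CPM in PL and at 2.34, 2.90, 5.77 and 2.37 CPM in NPL, with hen 13 far above the others.

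In ENSGALG00000054189 the fold of the means depended on 1 hen. The PL hens lay at 2.16, 2.38 and 1.93 CPM and NPL hens 12, 13 and 42 at 3.80, 3.87 and 3.53 CPM, whereas hen 10 reached 9.50 CPM. The groups remained apart by 1.48-fold, since hen 42 and not hen 10 bounds the gap.

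Several genes differed little between the NPL hens. ENSGALG00000012594 lay at 9.93, 9.86, 9.68 and 10.4 CPM in hens 10, 12, 13 and 42, a coefficient of variation of 3.08%, and at 7.11, 3.87 and 5.83 CPM in hens 8, 9 and 20. The PL hens differed far more among themselves, with a coefficient of 29.1%. ENSGALG00000011314 was alike in this respect, with 2.23, 2.43, 2.27 and 2.32 CPM in NPL against 1.52, 0.882 and 1.21 CPM in PL. In both genes hen 8 was the highest PL hen and hen 9 the lowest. ENSGALG00000043460 was also level in the NPL hens and lowest in hen 9, with 1.55, 1.58, 1.60 and 1.67 CPM in NPL and 1.18, 0.806 and 1.21 CPM in PL. Counting error alone would give NPL coefficients of 6.35%, 13.2% and 15.9% in these 3 genes, in the order named, so the small spread marks no special precision. The observed coefficient lay below counting error in 4 of the 26 genes in NPL and in 9 in PL. These counts cover the members only, and nothing is read from them.

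Other genes differed little within PL, by less than counting error for the first 2 named here, and spread within NPL. ENSGALG00000006809 lay at 3.47, 3.26 and 3.27 CPM in PL and at 6.37, 5.25, 4.58 and 5.80 CPM in NPL. ENSGALG00000010857 lay at 7.24, 7.17 and 7.80 CPM in PL and at 14.2, 15.0, 9.79 and 13.6 CPM in NPL. Hen 13 was the lowest NPL hen in both, and for ENSGALG00000010857 it reduced a wide distance to a gap of 1.26-fold. ENSGALG00000025958 went from 3.89, 3.07 and 3.23 CPM in PL to 5.61, 15.2, 5.18 and 9.61 CPM in NPL, with hen 12 far above hens 10 and 13. Over the 26 genes, the coefficient of variation was larger in NPL for 13 and larger in PL for 13, with medians of 17.3% and 22.0%.

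Other genes with many reads had gaps of 1.26- to 1.34-fold. ENSGALG00000015554, the most read of all members, lay at 13.8, 12.3 and 9.01 CPM in PL and at 19.5, 21.9, 17.5 and 24.7 CPM in NPL, a log2 fold change of -0.85 (SE 0.22). ENSGALG00000001968 lay at 7.41, 6.29 and 7.48 CPM in PL and at 10.0, 13.6, 10.2 and 11.9 CPM in NPL. ENSGALG00000004083 lay at 6.35, 7.75 and 4.03 CPM in PL and at 10.3, 11.5, 12.1 and 13.7 CPM in NPL. No hen was the lowest of its group in all 3 genes. ENSGALG00000048283, with 4.36, 1.73 and 2.73 CPM in PL and 10.9, 5.51, 8.97 and 6.78 CPM in NPL, had the largest coefficient of variation within PL, 45.2%.

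The smallest differences were close to the limits of the rule. ENSGALG00000014699 had the smallest fold of means, 1.37, with 4.15, 3.99 and 3.76 CPM in PL and 5.22, 5.38, 5.59 and 5.62 CPM in NPL. The means were 3.97 ± 0.192 CPM (SD, n = 3) and 5.45 ± 0.189 CPM (SD, n = 4), with a spread below counting error in both groups. ENSGALG00000017819 was the least read, with a mean of 1.03 CPM over the 7 hens and 11 to 14 reads in each PL library. It lay at 0.508, 0.537 and 0.493 CPM in PL and at 1.11, 2.09, 0.782 and 1.67 CPM in NPL.

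Values on either side of the threshold were close. Just inside were ENSGALG00000041522, with a ratio of 1.252 from 1.02, 0.460 and 1.08 CPM in PL and 2.05, 1.41, 1.56 and 1.35 CPM in NPL, and ENSGALG00000010857, described above, with 1.256. Just outside were ENSGALG00000043130 with a ratio of 1.247 and ENSGALG00000013143 with 1.246. The latter is read more than any of the 26, at 36.6 ± 4.55 CPM in PL (SD, n = 3) and 51.9 ± 2.27 CPM in NPL (SD, n = 4). A further 65 genes passed the ratio with a mean under 1 CPM, the highest of them at 0.840 CPM. The members not yet described, ENSGALG00000002287, ENSGALG00000050651, ENSGALG00000028209, ENSGALG00000049162, ENSGALG00000034960 and ENSGALG00000014178, had gaps of 1.26- to 1.42-fold and log2 fold changes between -1.09 and -0.67. In ENSGALG00000002287, the widest of these, the PL hens lay at 0.846, 0.921 and 0.583 CPM and the NPL hens at 1.58, 1.45, 1.30 and 2.32 CPM.

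Counting error was large beside many of these gaps. For the 2 hens that bound each gap, the 95% exact Poisson intervals of the reads stayed apart in 7 of the 26 genes and overlapped in the other 19. The 7 were ENSGALG00000053144, ENSGALG00000027809, ENSGALG00000030151, ENSGALG00000012594, ENSGALG00000001968, ENSGALG00000004083 and ENSGALG00000015554, named after their values were seen. Overlap of 2 separate intervals does not show that counting error accounts for a gap. These intervals cover counting error only, and each compares 2 libraries and not the groups. The rule itself required a margin between the 2 hens compared, which favours intervals that stay apart. The same count was not made over other genes, so the 7 of 26 has no background and is a description of the members.

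The order of the hens inside each group was uneven. The rule uses the highest PL and the lowest NPL hen of each gene and so limits where a hen can lie, and the counts that follow are a description. With log2 CPM scaled by TMM factors, which correct library totals for a few strongly read genes, PL hen 8 lay above the mean of the PL hens in 23 of the 26 genes, and NPL hen 13 lay below the mean of the NPL hens in 22. Hen 42 lay above its group mean in 22 genes. Over the 15465 genes of at least 1 CPM in the same fit, these shares were 50.4% for hen 8, 50.6% for hen 13 and 50.1% for hen 42. Such shares lie near 50% for every hen, so they are no background for genes chosen by the rule. Within the 26 genes, hens 8 and 13 were the hens of each group that most often leaned toward the other group. The median deviation was 0.19 log2 for hen 8 and -0.14 log2 for hen 13.

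**Figure D2:**
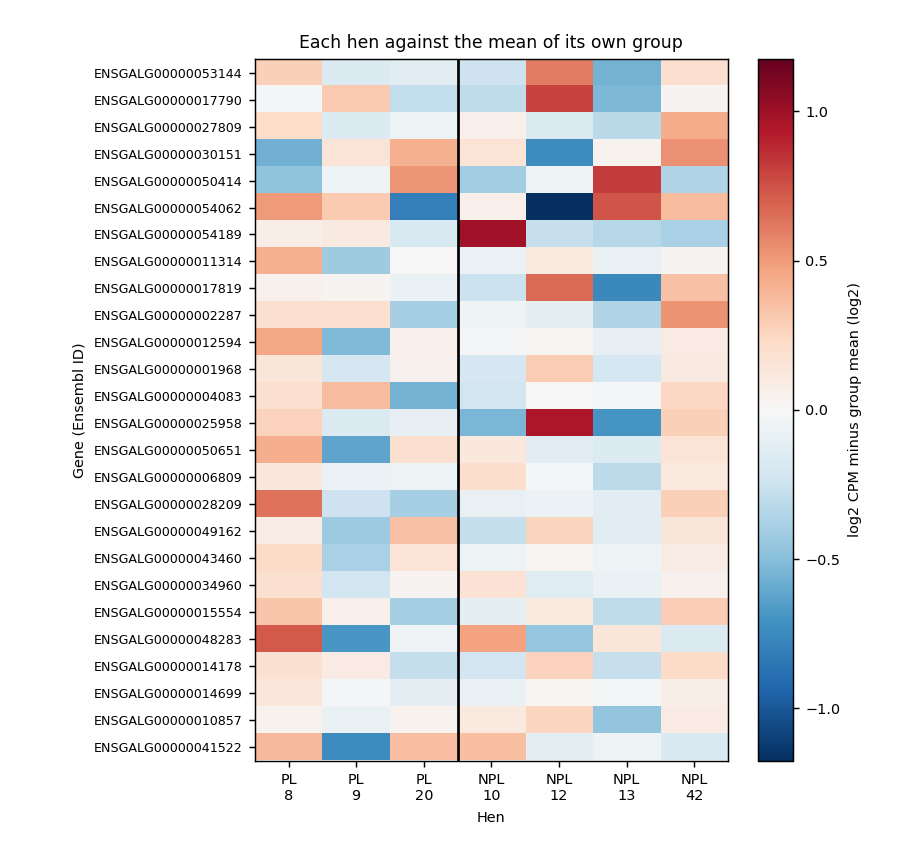
log2 CPM (TMM factors, prior count 2) of the 26 genes in each hen minus the mean of the hen's own group, red above and blue below that mean, with a line between the 3 PL and the 4 NPL hens. Hen 8 is red in 23 rows and hen 13 is blue in 22.

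ENSGALG00000030151 and ENSGALG00000050414 were exceptions for both hens 8 and 13. Hen 8 lay below its group mean in ENSGALG00000030151, ENSGALG00000050414 and, by 0.02 log2, ENSGALG00000017790. Hen 13 lay above its group mean in ENSGALG00000030151, ENSGALG00000050414, ENSGALG00000054062 and ENSGALG00000048283. The hen that bounds the gap depended on the scaling. On plain CPM hen 8 was the highest PL hen in 13 genes (beside 33.6% of all genes) and hen 13 the lowest NPL hen in 10 (beside 29.2%), and with TMM factors they were so in 18 and 15, beside 41.0% and 35.9% of all genes.

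The axis on which hens 8 and 13 lay with the other group was the largest in these data. Computed without the 26 genes, the leading principal component of the log2 CPM values took up 40.2% of their variance, with scores of 55.1, 27.2 and 27.8 for hens 9, 20 and 13 and between -35.1 and -10.2 for hens 8, 10, 12 and 42. The rule asks for hen 8 below and hen 13 above the other group, so a member can hardly follow this component. Over the 7 hens, 0 of the 26 had an absolute Pearson r above 0.9 with it, beside 20.9% of the 15465 genes. All 26 correlated negatively with it, between -0.75 for ENSGALG00000012594 and -0.06 for ENSGALG00000050414, with a median of -0.61. Part of this sign is fixed by the choice of the genes, since the mean score is higher in PL. After the group means were taken from both, r lay between -0.88 for ENSGALG00000011314 and 0.69 for ENSGALG00000050414. It was also positive in ENSGALG00000030151 (0.46) and ENSGALG00000054062 (0.16), and negative in all other members. Its median size was 0.66, beside 0.74 over the 15465 genes. These correlations share the 7 libraries and their depths and are a description.

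Within the groups the correlations between members leaned to positive values, but strong ones were rarer than over all genes. The correlation of deviations from the group means had a median of 0.25 over the 325 pairs. Over all pairs of the 15465 genes the median was -0.0009. An absolute r above 0.8 was found in 10.5% of the member pairs, beside 17.4% of all pairs. The pairs named next were picked as extremes of the 325. The most alike were ENSGALG00000011314 and ENSGALG00000012594 (r = 0.98) and ENSGALG00000025958 and ENSGALG00000053144 (r = 0.98). The first pair shared level NPL hens with hen 9 lowest in PL, and the second shared a high hen 12 and a low hen 13. ENSGALG00000050414 and ENSGALG00000006809 were the least alike (r = -0.92). The limits that the rule puts on the hens bear on these correlations too.

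A hen that took no part in the choice gives a reading that the rule did not fix. The rule was applied to 6 hens at a time, and the left-out hen was then placed on the PL or the NPL side of the mid-point between the 2 group means on the log2 scale. In the chosen genes the PL side is below the mid-point and the NPL side above it. Over all genes the same count was taken, below for a PL hen and above for an NPL hen. In genes higher in PL that is the opposite side, so the shares of all genes are not shares on the label's side. Leaving out a hen can only widen a gap, so nearly all members were chosen again each time: 26 of 26, or 25 without hen 12 or hen 42, where the mean of ENSGALG00000017819 fell under 1 CPM. What varies is how many other genes come with them and where the hen left out lies.

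Without hen 8, the rule chose 411 of 15500 genes (2.65%), and hen 8 lay on the PL side in 37 of them, 9.00% (95% Wilson interval 6.60 to 12.2%). The interval counts genes read in 1 hen, which are not independent. Hen 8 lay below the mid-point in 58.4% of all genes of that mean level, which is no share on the PL side. Among those with a lower mean in hens 9 and 20 than in the NPL hens it did so in 27.9%. In the 411 chosen genes its median position was 0.98, on a scale where the mean of the other PL hens is 0 and that of the NPL hens is 1. In most genes chosen as low in hens 9 and 20, hen 8 was thus nearer to the non-persistent hens. Of the 37 genes, 23 were members and 14 were not, out of 385 other genes chosen. The 26 members are those in which hen 8 too lay below every NPL hen by the full margin. Hen 8 also had a score on the leading component (-35.1) near those of NPL hens 12 (-31.7) and 42 (-33.2), with hen 10 at -10.2. The part of this in the result was not tested.

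With members counted, the other hens lay on the side of their labels more often than hen 8. Without hen 9, the rule chose 49 genes (0.316%) and hen 9 lay on the PL side in 65.3% (51.3 to 77.1%). It lay below the mid-point in 45.5% of all genes and 51.2% of the genes lower in the other PL hens than in the NPL hens. Without hen 20 the rule chose 63 genes (0.408%) and hen 20 lay on the PL side in 50.8% (38.8 to 62.7%). It lay below the mid-point in 43.7% and 53.6%, in the same order. Hen 9 was the PL hen most often on its own side.

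Among the NPL hens, hen 10 lay on the NPL side in 71.4% (56.4 to 82.8%) of 42 genes (0.271%). It lay above the mid-point in 52.8% of all genes and 68.1% of the genes lower in PL in the other hens. Hen 12 lay on the NPL side in 64.7% (51.0 to 76.4%) of 51 genes (0.329%), beside 45.0% and 60.5% above the mid-point, in the same order. Hen 13 lay there in 47.0% (36.6 to 57.6%) of 83 genes (0.537%), beside 59.2% and 38.4%. Hen 42 lay there in 40.0% (29.3 to 51.7%) of 70 genes (0.451%), beside 43.7% and 59.9%. How the intervals lie beside the background depended on the background. They count genes that are not independent, so only the position of the numbers is described. Against all genes, the intervals of hens 9, 10 and 12 lay higher, those of hens 8 and 13 lower, and those of hens 20 and 42 held the value. Against the genes lower in PL in the other hens, only the interval of hen 9 lay higher, narrowly, those of hens 8 and 42 lay lower, and those of hens 10, 12, 13 and 20 held the value. With TMM factors the intervals of hens 8 and 42 lay below both backgrounds. They were 4.76 to 9.46% beside 49.4% and 21.0%, and 20.9 to 42.8% beside 49.3% and 64.8%. Those of hen 9 and hen 12 (47.0 to 75.8%, beside 51.7% and 67.1%) held both. That of hen 20 (29.9 to 55.8%, beside 51.2% and 60.6%) held the first and lay below the second. That of hen 13 (31.3 to 53.3%, beside 50.1% and 30.6%) held the first and lay narrowly above the second. For hen 10 the interval lay beside both backgrounds as before. When the side was taken as past the nearest hen of the opposite group, hen 8 kept its side in 23.8%, beside 24.6% of all genes. Each other hen kept its side in 44.3 to 83.3%, beside 19.1 to 29.5% of all genes. The chosen genes have a gap between the other hens, which by itself raises this share, so it is not read against all genes. The 7 readings share hens, genes share libraries and are not independent, and each reading rests on 1 hen. The intervals therefore describe the count of genes only. They do not place a hen above or below a background, and no p is given. The members are among the genes of each reading, and the choice places them: 23 to 26 of them had the left-out hen on its own side. Among the other genes chosen, it lay there in 7 of 23 for hen 9 and 7 of 37 for hen 20. In NPL these counts were 4 of 16 for hen 10, 9 of 26 for hen 12, 16 of 57 for hen 13 and 3 of 45 for hen 42. Those genes failed the rule with the hen included, which by itself lowers their share.

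**Figure D3:**
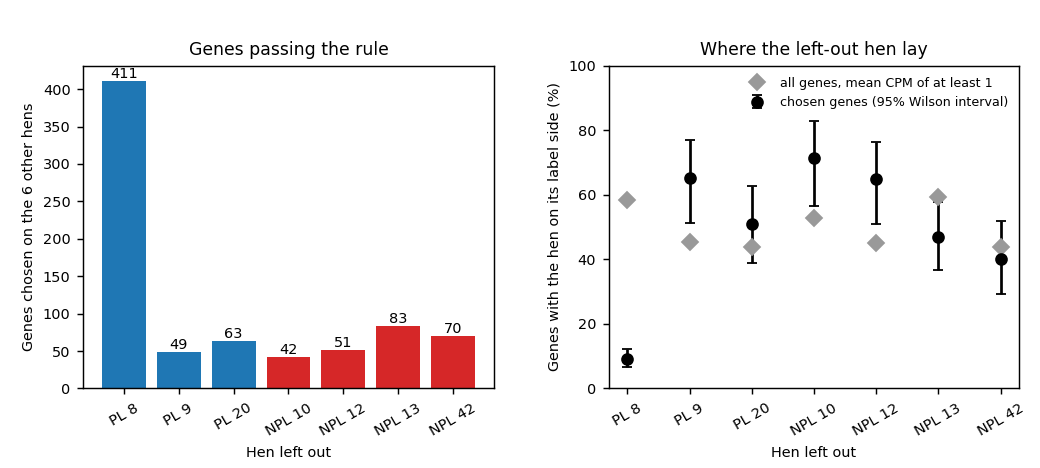
Left, the number of genes that pass the rule on 6 hens, for each hen left out, with PL hens in blue and NPL hens in red. Right, the share of those genes in which the left-out hen lay on the side of its own label (black points, 95% Wilson intervals). Grey diamonds give the share of all genes of at least 1 CPM with a PL hen below or an NPL hen above the mid-point. They count this whichever group was higher, so they are not label-side shares. The intervals count genes that are not independent. Hen 8 stands at 9.00% of 411 genes.

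No member passed edgeR or limma voom over all genes, while DESeq2 called 4. By edgeR's quasi-likelihood test 0 of the 26 genes had an adjusted p under 0.05 (background, 0 of 17051 genes lower in PL, 0%). At an unadjusted p under 0.05 there were 25 of the 26 members, with 330 genes lower in PL in all (1.94%), but the members were chosen on this same contrast and nothing is read from that count. DESeq2 called 4 genes lower in PL of 19333 with an adjusted p (0.0207%), and all 4 are members: ENSGALG00000053144, ENSGALG00000027809, ENSGALG00000030151 and ENSGALG00000054062. Limma voom with sample quality weights called 0 of 17051 (0%), and gave 2441 genes lower in PL an unadjusted p under 0.05 (14.3%), 25 of the members among them. The smallest adjusted p of any gene, in either direction, was 0.0595 by limma voom and 0.886 by edgeR.

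Of the 4 genes called by DESeq2, ENSGALG00000030151 was called with each hen left out in turn, with an adjusted p of at most 0.00372. ENSGALG00000054062 was not called without hen 20 and ENSGALG00000027809 without hens 20 or 10. ENSGALG00000053144 was not called without hens 9, 20, 12 or 42. When hen 8 was left out, DESeq2 called 16 of the 25 members it tested, among 637 of 15058 genes lower in PL (4.23%). For hen 13 it called 7 members among 10 of 20080 genes (0.0498%), and for hen 20 it called 1, the only gene of 21769 (0.00459%). Limma voom called 21 members without hen 13, among 1193 of 16857 genes (7.08%). Without hen 8 it called 0 members, among 66 of 17384 genes (0.38%), and without each other hen 0 genes lower in PL. EdgeR called 0 in each case. The members were chosen on this contrast, and nothing is read from these counts.

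Membership near the threshold depended on how the libraries were scaled. With TMM factors, which were lowest for hen 8 (0.956) and highest for hen 13 (1.04), 19 genes met the rule, 17 of them among the 26. The 9 that no longer met it were ENSGALG00000006809, ENSGALG00000010857, ENSGALG00000014178, ENSGALG00000014699, ENSGALG00000015554, ENSGALG00000025958, ENSGALG00000028209, ENSGALG00000043460 and ENSGALG00000048283. Their ratios with TMM factors lay between 1.17 and 1.248. All 26 still had PL and NPL values that did not overlap under that scaling. The widest gap, of ENSGALG00000053144, became 2.51-fold, and that of ENSGALG00000030151 widened to 2.01-fold.

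**Figure D4:**
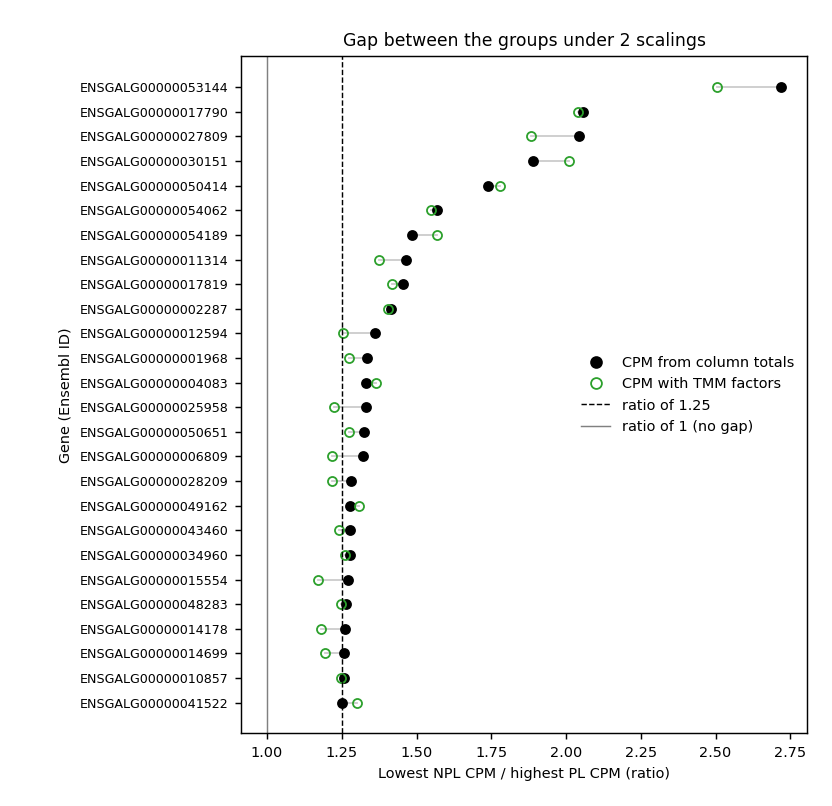
Ratio of the lowest NPL to the highest PL CPM for the 26 genes, with CPM from column totals (black) and with TMM factors (open green), a dashed line at the margin of 25% and a grey line at a ratio of 1. With TMM factors 9 genes fall left of the dashed line. None reaches the grey line, which the margin of the rule fixes.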

How the data were processed

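Per the labels' protocols, ovarian RNA was extracted with Trizol, column-cleaned with DNase and made into NEBNext Ultra II libraries, the kit name carrying "Directional" in brackets. The submitters' processing notes name Trim Galore and galGal6. No source used here gives the aligner, counter, annotation or strand setting. Raw read counts for 24356 genes in 7 columns were deposited by the authors, and each label states the column of its hen; all columns were used. The labels give no batch, and sample numbers do not pair hens.

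From the counts, CPM was taken from column totals. The fit across all genes was edgeR 4.0.16 (R 4.3.3) on group alone, with filterByExpr (17051 genes), TMM factors, robust quasi-likelihood and Benjamini-Hochberg adjustment at 0.05; DESeq2 1.42.0 and limma voom 3.58.1 were alternatives. All 26 members passed the filter. SE was derived from the fold change and the F statistic. Principal components used log2 CPM with a prior count of 2. The tools and the rule were tested on simulated counts.

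The members, the alternatives and the rule for named genes were chosen with earlier results of these data known. That rule named members by gap (10), mean CPM (8), correlation with the leading component, nearness to the ratio threshold and DESeq2 calls; the other members, and the gene at the limit of the mean, were added after their values were seen. Gene lists and marker genes fixed with it need symbols and were not used. Each hen gave 1 library, so the spread between hens includes sampling and library preparation.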

Additional observations from a re-analysis of the deposited data

Results flagged for a closer look

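Within the 4 NPL hens, Dixon's ratio at the 95% level marked 1 hen in 3 of the 26 genes. In ENSGALG00000054189 hen 10 lay at 9.50 CPM, with the nearest hen at 3.87 CPM. In ENSGALG00000050414 hen 13 lay at 5.77 CPM, with the nearest at 2.90 CPM. In ENSGALG00000028209 hen 42 lay at 3.34 CPM, with the nearest at 2.68 CPM. The 3 genes are 11.5% of the members, and the same check marked 6.15% of all genes of at least 1 CPM, where chance marks about 1 group in 20. In each gene the marked hen lay away from the PL hens and did not bound the gap. The rule favours this, since a low NPL hen would narrow the gap, and it bears on the share of members marked. The check was not made in the 3 PL hens.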

How the results depend on the processing

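The number of genes that meet the rule was 397 at a ratio of 1, 6 at 1.5 and 3 at 2, 91 without a minimum of the mean, 10 at 5 CPM, 19 with TMM factors or DESeq2 size factors, 42 to 411 with 1 hen left out and 1191 without hens 8 and 13 together. EdgeR called 0 genes lower in PL under its other scalings and filter and without any hen in turn, as did limma voom on all 7 hens. DESeq2 called 4. Leaving out hens 8 and 13 together, each hen with DESeq2 or limma voom, and library size alone for edgeR, were added after seeing the data. With a hen left out DESeq2 called 1 to 637 genes lower in PL, the most without hen 8. Limma voom called 0 to 1193, with 1193 without hen 13, 66 without hen 8 and 0 otherwise. The cause was not tested. The median log2 fold change of the members ranged from -1.16 (without hen 8) to -0.86 (without hen 9) with 1 hen left out and from -1.14 to -0.99 otherwise. All 312 fold changes of single members under 12 alternatives kept their direction, which the choice of the genes favours. In the readings of left-out hens, the side was also taken as past the nearest hen of the opposite group. This gave 23.8% for hen 8, 83.3% for hen 10, 63.9% for hen 13, 60.3% for hen 20 and 44.3% for hen 42. Over all genes, a PL hen below every NPL hen or an NPL hen above every PL hen was found in 24.6%, 19.1%, 20.5%, 19.8% and 20.3%. The gap in the chosen genes by itself raises their share, so nothing is read from the comparison. A ratio of 1.5 gave 85.7% for hen 10, on 7 genes. The remaining shares stayed within their intervals, though the shares of all genes beside them moved. No paired analysis was possible because the sample numbers differ between the groups. Reads per library limit the genes near 1 CPM most, with as few as 8 reads.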
